A study of Mus musculus with 4 samples.

Results

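The glucocorticoid receptor (GR) regions that follow were called in mouse liver after dexamethasone and not after vehicle, lay outside promoters and transcripts, and had a protein-coding transcription start site (TSS) within 100 kb. There were 5445 of them among the 31343 regions of the dexamethasone set (17.4%). They were selected on presence in one region set and absence from the other, so their signal after dexamethasone is given as a description with no test, and no fold over vehicle exists for them: the vehicle tables hold values only inside the 5883 vehicle regions. Starting from the 31286 dexamethasone regions on chromosomes 1 to 19 and X, 25573 overlapped no vehicle region, 18740 of those overlapped no promoter (a window reaching 2000 bp before and 200 bp past any TSS), 7003 of those were centred in no transcript, and 5445 met the distance limit.

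Liver of male mice aged 6 to 8 weeks was taken at ZT18 (18 h after lights on), and GR binding was profiled by ChIP-seq. The ZT18 Dex group received 1 mg/kg dexamethasone, a synthetic GR agonist, by intraperitoneal injection from a 0.2 mg/ml solution. The ZT18 Vehicle group received the cyclodextrin carrier, and tissue of both groups was collected after 1 h. Both groups carried the same labelled genotype, Hnf4a fl/fl Alb-Cre +/-, in which Cre driven by the albumin promoter would delete Hnf4a in hepatocytes, whereas the study describes C57BL/6 mice, so the genotype is not settled here. Each group had 2 libraries, each from 3 pooled immunoprecipitations, and the labels do not state that each library was a separate animal, so the spread between libraries may be technical. Both region sets were called across ZT6 and ZT18 libraries of one treatment, and presence in a set is therefore not a result of ZT18 alone. The libraries are of bulk liver, in which the number of cells of a type and the binding per cell cannot be told apart. Library totals were 64169077 and 65097597 reads in ZT18 Dex replicates 1 and 2 and 91494606 and 29179899 reads in ZT18 Vehicle replicates 1 and 2.

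GR is a nuclear receptor that rests in the cytoplasm with chaperones and moves to the nucleus when a glucocorticoid binds it. There it can bind DNA as a dimer at a glucocorticoid response element (GRE), an inverted pair of short sites (half-sites) with a fixed gap, or be held at other sites by partner factors. In liver much of its binding is known to fall in enhancers, stretches of open chromatin away from genes that hepatocyte factors such as C/EBP, FOXA and HNF4A keep accessible. Liver GR is known for raising gluconeogenesis and amino acid breakdown and for damping inflammation.

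A GRE was searched as GNACANNNTGTNC, which has 8 fixed bases, on both strands within 100 bp of each region's centre. The 10 regions with a match and the highest mean RPKM (reads normalised for region width and library total) are shown to let the sites be compared, each by its nearest protein-coding gene. Their windows, plus strand of mm10, run 5′ to 3′ with the GRE in capitals.
Cldn14: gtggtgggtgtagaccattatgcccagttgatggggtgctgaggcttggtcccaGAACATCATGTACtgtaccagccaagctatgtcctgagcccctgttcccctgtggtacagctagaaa
Tef: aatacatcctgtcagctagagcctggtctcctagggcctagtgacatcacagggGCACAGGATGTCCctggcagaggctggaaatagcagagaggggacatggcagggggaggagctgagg
Mfsd1: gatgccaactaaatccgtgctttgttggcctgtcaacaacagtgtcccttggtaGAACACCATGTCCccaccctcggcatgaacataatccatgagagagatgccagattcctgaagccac
Cldn5: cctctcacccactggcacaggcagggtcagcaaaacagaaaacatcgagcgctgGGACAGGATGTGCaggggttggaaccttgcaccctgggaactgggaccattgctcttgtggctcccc
Armc2: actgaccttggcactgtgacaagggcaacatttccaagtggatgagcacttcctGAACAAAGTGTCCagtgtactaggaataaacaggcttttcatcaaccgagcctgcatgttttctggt
Slc25a13: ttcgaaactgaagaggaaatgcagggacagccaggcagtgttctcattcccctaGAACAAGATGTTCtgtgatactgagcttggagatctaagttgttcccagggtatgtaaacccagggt
Zfp3: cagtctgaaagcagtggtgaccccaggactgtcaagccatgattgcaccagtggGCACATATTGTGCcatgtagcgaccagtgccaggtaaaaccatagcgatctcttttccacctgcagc
Arrdc2: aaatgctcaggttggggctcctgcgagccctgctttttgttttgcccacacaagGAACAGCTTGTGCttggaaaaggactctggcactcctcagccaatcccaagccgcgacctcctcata
Fbxo34: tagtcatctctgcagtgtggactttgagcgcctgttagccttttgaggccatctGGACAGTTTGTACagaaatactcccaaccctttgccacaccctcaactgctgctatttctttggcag
Irf2bp1: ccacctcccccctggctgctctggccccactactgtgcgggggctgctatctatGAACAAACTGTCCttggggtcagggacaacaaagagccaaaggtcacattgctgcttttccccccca

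The windows lay at chr16:93912932-93913052 for Cldn14, chr15:81834403-81834523 for Tef, chr3:67550294-67550414 for Mfsd1, chr16:18713238-18713358 for Cldn5, chr10:42092639-42092759 for Armc2, chr6:6242206-6242326 for Slc25a13, chr11:70740868-70740988 for Zfp3, chr8:70832481-70832601 for Arrdc2, chr14:47535260-47535380 for Fbxo34 and chr7:19013050-19013170 for Irf2bp1. All 10 windows are intergenic by the rule. In the Slc25a13 window the match extends to a full pair of AGAACA half-sites (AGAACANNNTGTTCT, the strict GRE), which only 2 of the 5445 regions held. The GRE midpoint lay 7 bp from the centre of the Cldn14 region and at most 53 bp from the centre in these 10 regions.

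Most of the strongest regions held no GRE match. Another 6 are shown with every other searched motif in capitals: the 5 strongest regions that held a searched motif but no GRE, and the strongest region near Pck1, the gene of the rate-limiting enzyme of gluconeogenesis. This second set was chosen after the values were seen.
Alas1: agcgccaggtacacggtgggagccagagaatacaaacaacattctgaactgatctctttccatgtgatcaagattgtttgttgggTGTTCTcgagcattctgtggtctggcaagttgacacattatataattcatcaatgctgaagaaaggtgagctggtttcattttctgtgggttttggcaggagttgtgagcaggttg
Ass1: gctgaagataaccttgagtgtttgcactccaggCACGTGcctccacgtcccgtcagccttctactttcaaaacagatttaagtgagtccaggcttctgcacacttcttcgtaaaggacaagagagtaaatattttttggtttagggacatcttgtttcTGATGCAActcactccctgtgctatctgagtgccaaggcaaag
Anapc16: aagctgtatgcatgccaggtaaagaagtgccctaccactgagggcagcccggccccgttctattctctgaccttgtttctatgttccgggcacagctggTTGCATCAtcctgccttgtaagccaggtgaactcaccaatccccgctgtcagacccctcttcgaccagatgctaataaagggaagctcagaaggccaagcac
Ddit4: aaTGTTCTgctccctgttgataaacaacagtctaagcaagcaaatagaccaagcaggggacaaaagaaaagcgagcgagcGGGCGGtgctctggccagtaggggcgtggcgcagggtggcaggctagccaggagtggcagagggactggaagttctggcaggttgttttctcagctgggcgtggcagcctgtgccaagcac
Spin1: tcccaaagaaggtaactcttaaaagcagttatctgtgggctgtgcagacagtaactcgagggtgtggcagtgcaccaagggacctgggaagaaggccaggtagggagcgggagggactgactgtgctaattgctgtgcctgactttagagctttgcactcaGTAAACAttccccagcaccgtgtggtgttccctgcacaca
Pck1: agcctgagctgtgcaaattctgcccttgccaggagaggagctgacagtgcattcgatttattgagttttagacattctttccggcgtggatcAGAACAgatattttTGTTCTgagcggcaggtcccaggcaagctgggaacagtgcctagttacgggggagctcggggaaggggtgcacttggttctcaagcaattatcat

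These windows lay at chr9:106263526-106263726 (Alas1), chr2:31463406-31463606 (Ass1), chr10:59983575-59983775 (Anapc16), chr10:59921185-59921385 (Ddit4, in a region 30.5 kb downstream of its TSS with 10.9 and 11.9 RPKM in replicates 1 and 2), chr13:51090323-51090523 (Spin1) and chr2:173143722-173143922 (Pck1). The capitals mark the half-site AGAACA or its complement in Alas1, Ddit4 and Pck1, an E-box (CACGTG) and then a C/EBP-ATF site (TTGCATCA, here on the minus strand) in Ass1, a C/EBP-ATF site in Anapc16, a GC box (GGGCGG) as the second capital run in Ddit4, and a FOXA site (TGTTTAC, here on the minus strand) in Spin1. The Pck1 window held a pair of half-sites that face each other with 8 bases between them in place of the GRE's 3. That spacing occurred in 3 regions (0.0551%), near Btbd2, Pck1 and Vgll3, and in 1 flanking window (0.00918%), and the spacing of 3 occurred in 2 regions.

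In ZT18 Dex replicate 1 the RPKM ran from a lowest value of 0.549 through a median of 2.80 to a highest of 14.95. In replicate 2 it ran from 0.820 through 3.41 to 19.1. The middle 50% of regions lay between 2.13 and 3.73 RPKM in replicate 1 and between 2.56 and 4.69 in replicate 2. The values rest on a median of 84 reads (10 to 656) in replicate 1 and 104 reads (14 to 891) in replicate 2, over a median width of 452 bp. Together the regions held 0.858% and 1.07% of all reads in replicates 1 and 2, which was 13.5% and 13.7% of the reads inside dexamethasone regions.

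Replicate 2 was the higher library in 4166 of the 5445 regions (76.5%), by a median log2 ratio of 0.30. Reads inside all dexamethasone regions made up 6.35% of replicate 1 and 7.79% of replicate 2, and replicate 2 was also the higher in 1011 of 1133 intergenic regions shared with vehicle (89.2%). The gap moved with base composition: its median was 0.48 in the 1196 regions with the lowest GC content (24 to 45.5% of the central 200 bp) and 0.19 in the 1034 with the highest (54.5 to 78.5%). Across regions, which are not independent, Spearman's rho between the libraries was 0.738 and Pearson's r of log2 RPKM was 0.749. The libraries were over 2-fold apart in 294 regions (5.40%).

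**Figure D1:**
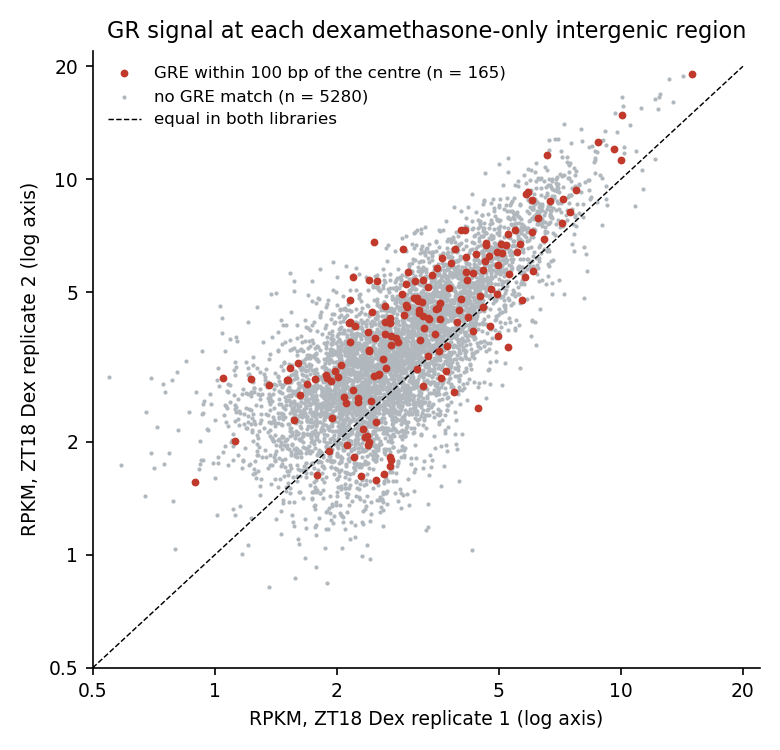
RPKM of each of the 5445 regions in ZT18 Dex replicate 1 (horizontal, log axis) and replicate 2 (vertical, log axis). Red points are the 165 regions with a GRE within 100 bp of the centre, grey points the regions without one, and the dashed line marks equal values; most points lie above it, and the region near Cldn14 is at the upper right with 14.95 and 19.1 RPKM.

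Among regions with at least 50 reads in both libraries, the largest gaps between them ran in both directions. A region 59.2 kb upstream of Ccny had 1.57 RPKM in replicate 1 and 5.36 in replicate 2 (log2 ratio 1.78). One 18.96 kb upstream of Slc38a2, which encodes an amino acid transporter, had 1.95 and 6.01 RPKM (log2 ratio 1.62). In the other direction a region 98.3 kb upstream of Grik3 had 3.61 RPKM in replicate 1 and 1.53 in replicate 2 (log2 ratio -1.24), and one 51.2 kb upstream of Tmem72 had 2.91 and 1.45 (log2 ratio -1.01).

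Intergenic regions also present after vehicle carried more signal. The 5445 dexamethasone-only regions had medians of 2.80 and 3.41 RPKM in replicates 1 and 2, against 4.86 and 6.43 RPKM in the 1133 shared intergenic regions within 100 kb, a ratio of 0.577 in replicate 1 and 0.530 in replicate 2. The dexamethasone-only regions were also narrower, with a median of 452 bp against 707 bp. In regions of like width (456 to 580 bp) the ratio stayed at 0.568 and 0.509, with 1162 dexamethasone-only and 202 shared regions. In the narrowest class (195 to 351 bp) it was 1.09 and 1.16, but only 15 shared regions were that narrow. The difference in signal was thus present in the 4 width classes with enough shared regions to compare. Absence from the vehicle set is what chose the regions, so this difference is a description only.

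Dexamethasone-only regions elsewhere were much closer. The 10713 in introns had medians of 2.90 and 3.60 RPKM, so that the intergenic regions stood at 0.967 and 0.947 of the intronic level. The 1558 intergenic regions beyond 100 kb had 2.40 and 2.89 RPKM, so that those within 100 kb stood at 1.17 and 1.18 of theirs. Both ratios were on the same side of 1 in both libraries, and the gap between the libraries was larger than either difference.

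**Figure D2:**
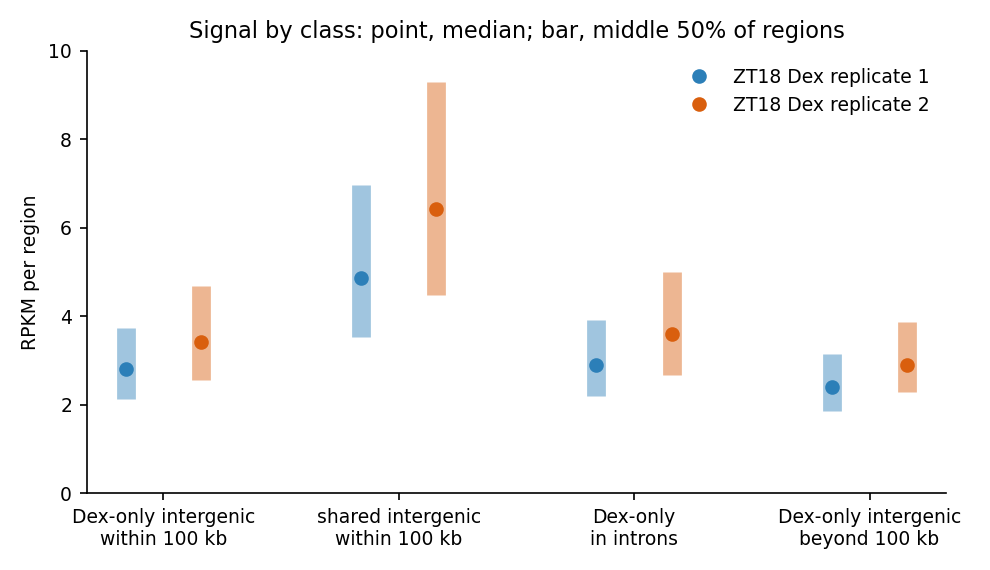
RPKM per region in ZT18 Dex replicates 1 (blue) and 2 (orange) for 4 classes of dexamethasone region, left to right dexamethasone-only intergenic within 100 kb, shared intergenic within 100 kb, dexamethasone-only in introns and dexamethasone-only intergenic beyond 100 kb. Points are medians and bars span the middle 50% of regions; the shared class has the highest medians, 4.86 and 6.43, against 2.80 and 3.41 in the first class.

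The strongest regions lay near genes of several liver functions. The highest of all, 16.6 kb downstream of the TSS of Cldn14, a tight junction protein, had 14.95 RPKM in replicate 1 and 19.1 in replicate 2 (mean 17.0 ± 2.93, SD, n = 2 libraries) at chr16:93912801-93913196. It ranked 111th among all dexamethasone regions, so that none of the 5445 was among the highest 100 and 62 (1.14%) were among the highest 1000. The 5445 made up 17.4% of all dexamethasone regions. The rule left out regions shared with vehicle, whose intergenic members had higher medians, so these ranks are a description only. A region 79.6 kb upstream of Ptpn1, a phosphatase that acts on the insulin receptor, had 14.3 and 18.9 RPKM. The region 14.97 kb upstream of Alas1, the rate-limiting enzyme of haem synthesis in liver, had 13.2 and 18.5 RPKM.

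Rxra, the partner receptor of many liver nuclear receptors, was the nearest gene of a region with 13.5 and 16.1 RPKM, although it lay 80.8 kb away. Ddit4, a stress-induced inhibitor of mTORC1 and a known glucocorticoid target, had one 20.9 kb upstream with 12.4 and 16.6 RPKM. Ass1, a urea cycle enzyme, had one 6.70 kb upstream with 12.1 and 16.4 RPKM. These 6 regions were all higher in replicate 2, as were 76.5% of the 5445 regions. They were named for their high mean RPKM. Their place above the third quartile of the 5445 regions in both libraries (3.73 and 4.69 RPKM) was thus set by that choice.

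Igfbp1, a secreted binding protein of insulin-like growth factors, had a region 3.11 kb upstream at 11.2 and 15.5 RPKM. Apoa1, the main protein of high-density lipoprotein, had one 4.15 kb upstream at 10.1 and 15.7 RPKM. Of the 20 highest regions 2 held a GRE, those near Cldn14 and Tef, against 3.03% of all 5445. Their distances to the nearest protein-coding TSS ran from 3.11 to 80.8 kb, so they were not confined to the edge of the promoter window.

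Some of the strongest regions were neighbours. The region with the GRE nearest Tef (10.05 and 14.9 RPKM), a clock-output transcription factor, ended just before one assigned to Tob2 (12.5 and 16.9 RPKM), at 23.0 kb from the Tef TSS and 22.8 kb from the Tob2 TSS, so that the nearest-gene rule gave neighbouring regions different genes. Likewise a region assigned to Anapc16 (12.2 and 11.3 RPKM, chr10:59983562-59983786) lay near the upstream Ddit4 region (chr10:59972600-59972806). Alas1 and Poc1a shared a run of 5 regions over 10.4 kb, with 3.71 to 13.2 RPKM in replicate 1 and 4.82 to 18.5 in replicate 2. The nearest gene is a label of position, and which gene a region acts on was not measured.

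Median signal was lower the farther regions lay from the nearest protein-coding TSS. The 475 regions within 5 kb had medians of 3.40 and 4.32 RPKM, the 825 at 5 to 10 kb had 2.93 and 3.61, the 1581 at 10 to 25 kb had 2.84 and 3.40, the 1326 at 25 to 50 kb had 2.69 and 3.29, and the 1238 at 50 to 100 kb had 2.61 and 3.11. The order was the same in both libraries. The median distance was 23.0 kb, and 3799 regions (69.8%) lay upstream of that TSS and 1646 (30.2%) downstream. The rule removed regions inside transcripts, which lie downstream of a TSS, so this split is not a finding. For 2728 regions (50.1%) a noncoding or other TSS lay closer than the protein-coding one.

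The regions nearest the 100 kb limit are given without a test. Just inside it, regions 99.9 kb from Foxo1 and 99.8 kb from BC067074 had 2.83 and 3.0 RPKM and 1.68 and 1.71 RPKM in replicates 1 and 2. Just outside it, regions 100.1 kb from Irx4 and 100.2 kb from Snx18 had 2.14 and 1.88 RPKM and 2.93 and 5.29 RPKM. At the limit on overlap with vehicle regions, no excluded intergenic region shared fewer than 211 bp with a vehicle region, and the closest retained region, 37.2 kb from Rap2a with 2.45 and 3.62 RPKM, was 232 bp from one.

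Nearness to a vehicle region went with higher signal. The 493 regions within 5 kb of one had medians of 4.03 and 5.30 RPKM, against 2.73 and 3.29 RPKM in the rest. With the limit at 10 kb the same direction held at each distance from the TSS. Within 10 kb of the TSS the medians were 3.48 and 4.41 with a vehicle region near (324 regions) and 2.998 and 3.67 without (976). At 10 to 50 kb they were 3.58 and 4.46 (438) and 2.67 and 3.19 (2469), and at 50 to 100 kb they were 3.32 and 4.20 (214) and 2.50 and 2.99 (1024). Whether weak vehicle signal under the calling threshold lay at these regions cannot be read from the tables.

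Part of the regions lay close to one another. Joining regions whose centres were within 10 kb left 3166 alone (58.1%) and put 2279 (41.9%) in runs, of which 28 runs held 5 or more. Runs were not counted in other classes of dexamethasone region, so whether this share is high or low was not tested. Regions in runs had medians of 3.15 and 3.92 RPKM, against 2.61 and 3.10 RPKM in those alone. The run with the most regions had 8 over 27.0 kb downstream of the Tsc22d3 TSS, with 2.36 to 6.24 RPKM in replicate 1 and 4.07 to 7.88 in replicate 2. Tsc22d3 encodes GILZ, a leucine zipper protein that glucocorticoids induce in many tissues. A GRE was in 1 of the 8, the strongest of them, 29.7 kb from the TSS with 6.24 and 7.88 RPKM.

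Runs of 7 regions lay near Mical2 and Dkk3, near Tnks2 and Ppp1r3c, and between Mup5 and Mup19. Ppp1r3c encodes a glycogen-targeting subunit of protein phosphatase, and the Mup genes encode major urinary proteins. The Mup genes are near-identical copies, so reads there may have been placed on the wrong copy and those 7 values (1.59 to 3.54 RPKM in replicate 1, 1.94 to 5.76 in replicate 2) are uncertain. The 369 regions (6.78%) with at least 50% of their bases in repeats carry the same doubt.

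The GRE stood out most in the sequences. It was present in 165 of 5445 region centres (3.03%, 95% Wilson interval 2.61 to 3.52), against 39 of the windows of equal length 2 kb to either side (0.358%, 0.262 to 0.489), an 8.46-fold difference. Intervals here cover counting error only. The share was 4.32% (3.29 to 5.67) in shared intergenic regions, 3.28% in dexamethasone-only introns, 3.08% beyond 100 kb and 2.70% in all dexamethasone regions, so the dexamethasone-only intergenic share lay within counting error of the intronic and distal ones and its interval overlapped that of the shared class. Across the 5 distance classes it was 2.78 to 3.39%, with no order by distance.

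Matches clustered at the centre, 114 of 171 (66.7%) within 50 bp of it and 58 (33.9%) within 25 bp. The half-sites were of mixed letters. Of 342 half-sites, 124 read GGACA, 117 GAACA, 63 GCACA and 38 GTACA. The commonest pairing was GAACA with GGACA (51 of 171), whereas 17 sites had GAACA on both sides. There were 129 distinct matches, and the most frequent, GAACACTCTGTCC or its complement, occurred 5 times.

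Regions with a GRE had more signal. Their medians were 3.18 RPKM in replicate 1 and 4.27 in replicate 2, against 2.80 and 3.38 RPKM in regions without one, while their median width was smaller (378 bp against 455 bp). Sorted by mean RPKM into 5 equal groups, 2.20%, 1.84%, 2.30%, 3.95% and 4.87% held a GRE from the lowest to the highest. In replicate 1 alone the lowest group had 1.93% (1.26 to 2.93) and the highest 4.87% (3.74 to 6.31), and in replicate 2 alone they had 1.84% (1.19 to 2.82) and 5.33% (4.14 to 6.82), so the intervals of the extreme groups did not overlap in either library. The AGAACA half-site showed no such order, at 22.4% in the lowest and 23.3% in the highest group by mean RPKM. Median GC content was 50.5% with a GRE and 50% without.

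**Figure D3:**
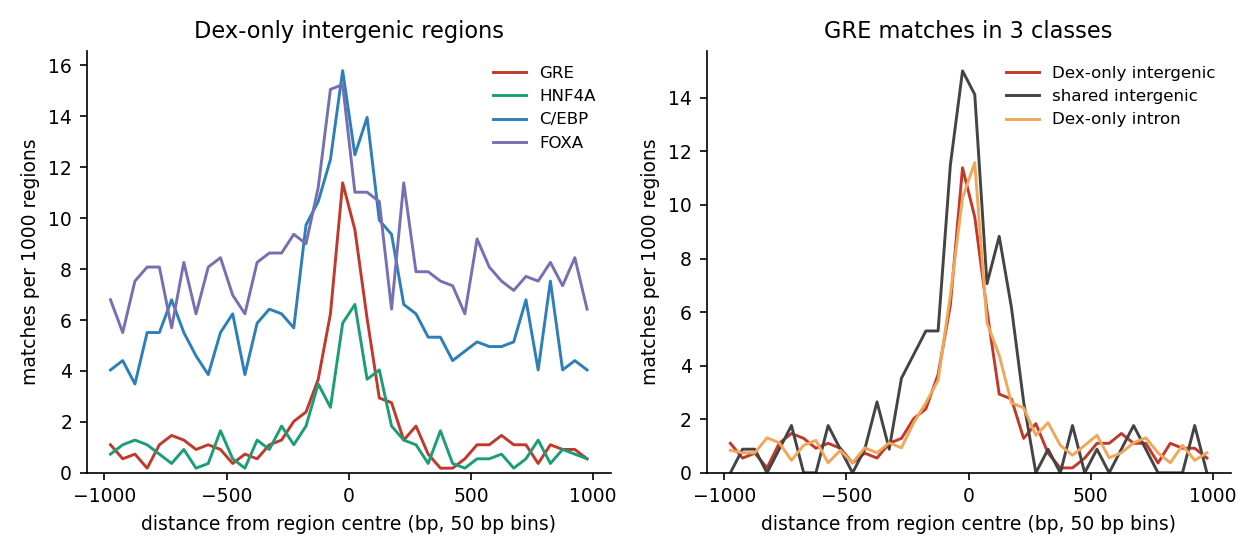
Motif matches per 1000 regions in 50 bp bins against distance from the region centre, from -1000 to 1000 bp. Left, 4 motifs in the dexamethasone-only intergenic regions; right, the GRE in those regions (red), shared intergenic regions (black) and dexamethasone-only introns (orange). GRE matches reach 11.4 per 1000 regions in the bin just before the centre of the dexamethasone-only intergenic regions.

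Motifs of hepatocyte factors were also more frequent at the centres than in the flanks. The HNF4A motif CAAAGTCCA was in 1.80% of centres (1.48 to 2.19) and 0.294% of flanks (0.208 to 0.415), a 6.13-fold difference, and the related nuclear receptor repeat CAAAGGTCA (DR1) was in 1.58% and 0.441%. HNF4A and C/EBP are known to keep hepatocyte genes active. The labelled genotype, which is not settled here, would delete Hnf4a in hepatocytes. A match gives the letters only, and HNF4A binding was not measured. The C/EBP motif TTGCNCAA was in 5.11% of centres (4.55 to 5.72) and 1.76% of flanks (1.53 to 2.03), and the C/EBP-ATF site TTGCATCA in 1.19% and 0.376%. FOXA (TGTTTAC), the motif of pioneer factors of liver enhancers, was in 4.92% (4.38 to 5.53) and 2.60% (2.32 to 2.91). In shared intergenic, dexamethasone-only intronic and dexamethasone-only distal regions, HNF4A was in 2.12%, 1.48% and 1.60%. C/EBP was in 5.12%, 5.48% and 6.68% of the same classes, and FOXA in 5.12%, 5.23% and 5.97%. All these intervals overlapped those of the dexamethasone-only intergenic regions, so these motifs were not particular to them. HNF4A matches followed signal in the same direction as the GRE, with medians of 3.14 and 4.07 RPKM with a match against 2.80 and 3.40 without.

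Other motifs differed less or in few regions. STAT (TTCNNNGAA) was in 7.55% of centres and 6.35% of flanks, and AP-1 (TGANTCA) in 7.25% (6.595 to 7.97) and 6.39% (5.95 to 6.87), whose intervals overlapped. The clock-related E-box CACGTG was in 3.78% and 2.52%, RORE (TAGGTCA) in 2.70% and 1.99%, and D-box (TTATGTAA) in 1.14% and 0.808%. The core of the insulator motif of CTCF, AGNGGGCGC, was in 40 centres (0.735%) and 0.239% of flanks. Those 40 regions had medians of 2.84 RPKM in replicate 1 and 2.73 in replicate 2, a median log2 ratio between the libraries of -0.03 where the other regions had 0.30, with a median GC content of 54% against 50%.

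The AGAACA half-site was in 22.1% of centres and 17.5% of flanks. GC box (GGGCGG), common in promoters, was in 4.76% of centres and 2.62% of flanks but in 13.1% of all dexamethasone regions. ETS (CCGGAAGT) was in 0.331% of centres and 1.37% of all dexamethasone regions. The rule removed promoter regions, which the full set keeps, so these 2 gaps to the full set are not findings. Outside promoters, GC box was in 4.32% of dexamethasone-only intronic and 6.18% of shared intergenic regions, and ETS in 0.196% and 0.353%. LRH-1 (TCAAGGTCA) was in 1.03% and 0.725% of centres and flanks, and CRE (TGACGTCA) in 0.441% and 0.156%. NFI, a pair of TTGGC half-sites 5 bases apart, was in 2 regions, and the HNF1 palindrome in none of 5445, which allows a share of up to 0.0705%. Leaving out the half-site, 3329 regions (61.1%) held none of the other 19 motifs in the central 200 bp, and no match says only that these letters were absent there.

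**Figure D4:**
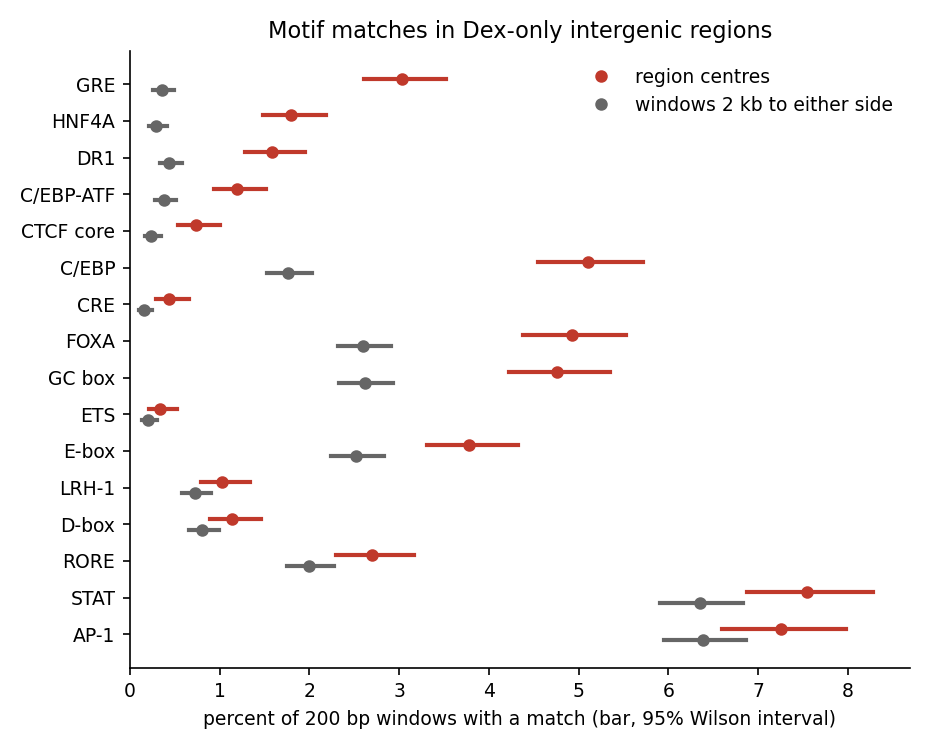
Percent of 200 bp windows with a match to each motif found in at least 10 region centres, the AGAACA half-site left out. Red, centres of the 5445 regions; grey, windows 2 kb to either side; bars are 95% Wilson intervals. GRE is at 3.03% and 0.358%, the widest gap in ratio, and AP-1 at the bottom is at 7.25% and 6.39%.

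Regions with a GRE seldom held a FOXA match: 3 of 165 (1.82%, 0.620 to 5.21) against 265 regions without a GRE (5.02%, 4.46 to 5.64), with intervals that overlapped. HNF4A matches were in 1 of 165 (0.606%, 0.107 to 3.35) and 1.84% (1.51 to 2.24), and C/EBP matches in 6 of 165 (3.64%, 1.68 to 7.71) and 5.15% (4.59 to 5.78). The intervals overlapped for all 3 motifs. The half-site was in 42.4% of regions with a GRE and 21.4% without, but the 2 motifs share letters and overlap, so that gap is in part built in.

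A region was assigned to its nearest protein-coding TSS, which gave 3237 genes with at least 1 of the regions (14.9% of 21668 protein-coding genes). For comparison 51.1% were the nearest gene of some dexamethasone region. Of the 3237 genes, 2026 (62.6%) had 1 region and 128 (3.95%) had 5 or more. A vehicle-shared region was also nearest to 1307 of them (40.4%). Of the same genes, 1583 (48.9%) also had a dexamethasone region over a protein-coding promoter, and 781 (24.1%) had no other dexamethasone region. The matching shares of other genes were not computed, so whether these overlaps are high or low was not tested.

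Irf2bp2, S1pr1 and Vegfa had the most, 10 regions each. Irf2bp2 encodes a transcriptional co-repressor. Its regions spanned -91.3 to 42.7 kb of the TSS, with 2.76 to 10.5 RPKM in replicate 1 (median 6.00) and 2.75 to 13.9 in replicate 2 (median 7.49). Vegfa, the endothelial growth factor, had 2.24 to 6.84 RPKM (median 4.19) and 3.90 to 8.90 (median 4.83), the strongest 32.7 kb downstream. S1pr1, a receptor for sphingosine 1-phosphate, had 1.93 to 4.98 (median 2.38) and 1.79 to 6.43 (median 4.04). None of these 30 regions held a GRE.

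Irs2, which relays insulin receptor signalling, had 9 regions of 28 dexamethasone regions in all, with 2.77 to 6.49 RPKM in replicate 1 and 2.65 to 7.84 in replicate 2, and 1 held a GRE. Ccny, Lmntd1 and Slc38a2 also had 9, and 1700017B05Rik, Acsl1 and Cd28 had 8. Acsl1 encodes an enzyme that activates long-chain fatty acids.

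In 17 lists of genes the share with at least 1 of the regions was compared with the 14.9% of all protein-coding genes, with no test. Direct glucocorticoid targets had the highest share, 20 of 30 genes (66.7%), and 29 of the 30 were nearest to some dexamethasone region. Their 68 regions had medians of 5.06 and 6.41 RPKM, against 2.80 and 3.41 RPKM over all 5445, and lay closer to the TSS (median 14.2 kb against 23.0 kb). A GRE was in 4 of the 68, against 3.03% of all 5445 regions, near Tsc22d3, Errfi1, Nfkbia and Arrdc2.

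**Figure D5:**
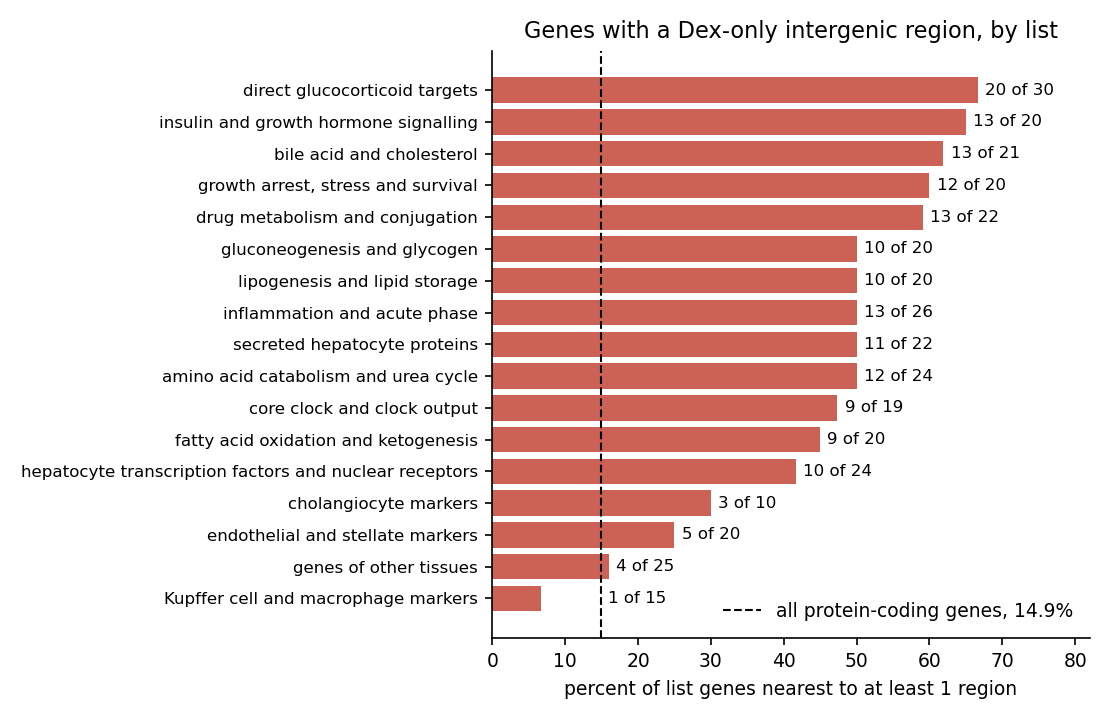
Percent of the genes in each of 17 lists that were the nearest protein-coding gene of at least 1 region, with counts beside the bars; the dashed line is the 14.9% of all protein-coding genes. Lists of liver functions run from 41.7 to 66.7%, and the Kupffer cell list is lowest at 6.67% (1 of 15 genes).

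Around 12 genes looked up by name, Pck1 stood out. It had 6 of the regions among its 7 dexamethasone regions, from -16.3 to 7.25 kb of the TSS, with 6.03 to 9.21 RPKM in replicate 1 and 6.95 to 12.5 in replicate 2. The 5 upstream regions formed a run of 10.6 kb, and the strongest, 9.23 kb upstream, had 9.21 and 12.4 RPKM. All 6 lay above the third quartile of the 5445 regions in both libraries (3.73 and 4.69). None held a GRE, against 3.03% of all 5445 regions, and 6 regions are too few to differ from that share.

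Tat, tyrosine aminotransferase and a long-used model gene of glucocorticoid induction, had 4 regions. The strongest, 3.88 kb upstream, had 11.3 RPKM in replicate 1 and 10.6 in replicate 2, one 6.26 kb upstream had 8.81 and 12.6, one 7.83 kb upstream had 8.46 and 8.95, and one 9.79 kb downstream had 3.97 and 5.47. G6pc, the enzyme that releases free glucose, had one 5.91 kb upstream with 8.33 and 9.36 RPKM and one 23.8 kb downstream with 4.06 and 2.101. The last was lower in replicate 2, as was the strongest region of Tat.

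Of the clock genes, Nfil3 had the most, 5 regions with 1.77 to 4.97 RPKM in replicate 1 and 3.04 to 5.67 in replicate 2. Npas2 had 3, with 3.62 to 4.78 and 5.15 to 6.66 RPKM. Tef, Bhlhe40, Per2 and Cry1 had 2 each. Those of Per2 lay at 4.18 kb (5.18 and 4.47 RPKM) and 6.29 kb upstream (2.75 and 3.16), the first with a DR1 match. Those of Cry1 lay at 2.65 kb (5.52 and 6.39) and 5.22 kb upstream (4.20 and 5.95). Nr1d1, which encodes the repressor REV-ERBα, had 1 at 8.03 kb upstream with 2.78 and 3.42 RPKM, close to the median of all 5445. In the clock list 9 of 19 genes (47.4%) had a region, against 14.9% of all protein-coding genes. Some dexamethasone region was nearest to 18 of the 19, against 51.1% of all protein-coding genes. The 19 regions of the list had medians of 3.74 and 4.74 RPKM, and Tef held both GREs.

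Klf9 and Zbtb16, glucocorticoid-induced transcription factors, had 1 region each, of 12 and 18 dexamethasone regions in all, with 1.96 and 3.48 RPKM and 2.93 and 3.24 RPKM. Fkbp5 had none of 19, Dusp1 none of 6 and Per1 none of 2, so that their dexamethasone regions all lay in the other classes (in promoters or transcripts, shared with vehicle, or farther away). Fkbp5 encodes a co-chaperone that dampens GR, and Dusp1 a phosphatase that turns off MAP kinases.

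Among other direct targets Ddit4 had 5 regions with 6.69 to 12.4 RPKM in replicate 1 and 7.75 to 16.6 in replicate 2, all above the third quartile. Nfkbia, the inhibitor of NF-κB, had 7 from 3.83 to 46.8 kb downstream, with 3.26 to 6.36 RPKM and 4.25 to 10.1 RPKM. The strongest, 13.6 kb from the TSS, had 6.36 and 10.1 RPKM, and the one at 3.83 kb with the GRE had 6.04 and 8.80. Gadd45g, a stress-response gene, had 5 of its 30 dexamethasone regions here, led by one 24.7 kb downstream with 11.4 RPKM in replicate 1 and 9.45 in replicate 2 that held a CRE match.

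Metabolic lists came next. Insulin and growth hormone signalling had 13 of 20 genes (65%), bile acid and cholesterol 13 of 21 (61.9%), growth arrest and stress 12 of 20 (60%) and drug metabolism 13 of 22 (59.1%). Gluconeogenesis and glycogen had 10 of 20 (50%), amino acid catabolism and urea cycle 12 of 24 (50%), lipogenesis 10 of 20 (50%) and fatty acid oxidation 9 of 20 (45%). All exceeded the 14.9% of all protein-coding genes. In each of these 8 lists at least 18 of its genes were nearest to some dexamethasone region, against 51.1% of all protein-coding genes, so the excess was not particular to the intergenic regions. The shares were not tested, and regions of different lists can be the same region where a gene is in 2 lists.

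Cyp8b1, the sterol 12α-hydroxylase that sets the mix of bile acids, had all 5 of its dexamethasone regions in the set, from -12.4 to 3.16 kb, led by one 9.03 kb upstream with 7.67 and 7.17 RPKM. Nr0b2, the repressor SHP, had one 4.06 kb downstream with 7.72 and 7.96 RPKM. Abca1, a cholesterol exporter, had one 38.1 kb upstream with 6.00 and 10.6 RPKM. Ppara, the receptor that drives fatty acid oxidation, had one 14.9 kb upstream with 8.00 and 9.27 RPKM, and Bdh1, a ketone body enzyme, one 2.67 kb upstream with 6.77 and 10.03 RPKM.

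In amino acid catabolism Slc25a15, the mitochondrial ornithine carrier of the urea cycle, had one 3.18 kb upstream with 6.98 and 9.29 RPKM, and Agxt, an aminotransferase of glyoxylate, had 2 with 5.13 to 7.44 RPKM in replicate 1 and 5.32 to 8.64 in replicate 2. In lipogenesis Scd1, the stearoyl-CoA desaturase, had one 13.6 kb downstream with 4.59 and 8.81 RPKM and Dgat2, which makes triglyceride, one 8.87 kb upstream with 4.32 and 7.44 RPKM and a C/EBP match. Drug metabolism was the weakest of the metabolic lists in replicate 1, with a median of 2.65 RPKM against 4.24 in replicate 2. Cyp2b10, an inducible cytochrome P450, had 2 regions with 2.19 to 2.89 RPKM in replicate 1 and 5.57 to 6.97 in replicate 2. Replicate 2 was the higher library in 76.5% of all 5445 regions, so this gap is not particular to Cyp2b10.

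Acute phase and secreted protein genes had regions in 13 of 26 (50%) and 11 of 22 (50%), against 14.9% of all protein-coding genes. In these lists 26 of 26 and 22 of 22 genes were nearest to some dexamethasone region, against 51.1% of all protein-coding genes. Hp, haptoglobin, had one 5.65 kb upstream with 9.003 and 10.1 RPKM, Saa1, serum amyloid A, one 4.32 kb upstream with 9.20 and 8.88, and C3, the central complement protein, one 5.07 kb upstream with 7.56 and 9.08. Secreted protein genes had the nearest regions of all lists, at a median of 6.58 kb. Among hepatocyte transcription factors 10 of 24 (41.7%) had a region, and 24 of 24 were nearest to some dexamethasone region. After Rxra the strongest were near Cebpb (76.4 kb downstream, 6.205 and 8.68 RPKM) and Cebpa (29.4 kb downstream, 5.90 and 8.82 RPKM).

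Lists of markers of other liver cells and of other tissues were set beside the same 14.9% of all protein-coding genes, and beside the 51.1% nearest to any dexamethasone region. Kupffer cell and macrophage markers had 1 of 15 (6.67%), Itgam, and 3 of 15 were nearest to any dexamethasone region. Endothelial and stellate markers had 5 of 20 (25%), with medians of 1.60 and 2.37 RPKM, the lowest of all lists, and 12 of 20 were nearest to any dexamethasone region. Cholangiocyte markers had 3 of 10 (30%), with 5 of 10 nearest to any, and genes of other tissues 4 of 25 (16%), with 9 of 25 nearest to any. With 10 to 25 genes in each list, these shares cannot be placed above or below that of all protein-coding genes. The 4 genes of other tissues were Ins1, Ins2, Scgb1a1 and Trp63, and the strongest region among them, 2.82 kb upstream of Scgb1a1, had 3.07 and 3.84 RPKM.

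By chromosome the regions made up 14.4% (chromosome 16) to 22.5% (chromosome 3) of all dexamethasone regions. Chromosome X had 55 regions with medians of 2.14 and 2.93 RPKM, the lowest of all chromosomes in both libraries, with a log2 ratio between libraries of 0.51, the highest of all.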

How the data were processed

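GR ChIP-seq tables of mouse liver at ZT18 were used, from 2 Dex and 2 Vehicle libraries grouped by title. Reads had been aligned to mm10 with Bowtie 1.1.0 and sorted with SAMtools 1.2. The authors called regions with MACS2 2.1.1 across ZT6 and ZT18 libraries, separately per treatment, and removed blacklisted ones. For each region and library they deposited read counts (whole reads, not normalized) and RPKM (those reads divided by region width and library total), and library totals were recovered from the deposited pair. Spike-in chromatin was added, but no factor for scaling by it was used here. The 4 tables of ZT6 libraries (20 value columns), which are not among the samples described, were not used.

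Regions were annotated with GENCODE M21 (basic set), and sequences were read from the RefSeq copy of GRCm38 (mm10) with pysam 0.24.0, pandas 2.3.3, scipy 1.17.1 and Python 3.11.15. Overlap meant at least 1 bp. A total of 20 motifs were searched on both strands without mismatches. Motif searches and interval queries were tested on simulated data. The rule for named regions took the 20 highest by mean RPKM, the 10 highest with a GRE, up to 3 per gene list, those of the 10 genes with most regions and of 12 looked-up genes, 5 on either side of the 100 kb limit, and the 5 with the largest library difference in each direction among those with at least 50 reads in both. Some of these, and some other regions of named genes, are printed. Members and lists were chosen with earlier results of these data known. No tests were run, and intervals are 95% Wilson intervals that cover counting error only. Alternatives covered overlap, promoter, distance, annotation, motif window, read minimum and repeats.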

Additional observations from a re-analysis of the deposited data

How the results depend on the processing

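Of 31 alternatives to 7 results, 19 left the value within the limit set for it. For the counts of regions and genes that limit was 1.5-fold. For the median RPKM and its ratio to shared regions it was the spread between the libraries. That spread comes from the same libraries, so leaving either one out was almost bound to stay within it. The number of regions ran from 4207 (50 kb limit) to 6297 (200 kb limit) and was 5155 with the full annotation, all within 1.5 times 5445. The number of genes fell to 1700 when only regions above the median RPKM of all dexamethasone regions were kept. The median RPKM was 2.80 to 3.41 and its ratio to shared intergenic regions 0.530 to 0.577 with either library left out, and the ratio was 0.342 with reads not divided by width, as shared regions are wider. The GRE share was 1.89% in 100 bp, 4.28% in 400 bp, 4.70% in whole regions, 0.0367% with the strict GRE and 4.26% in regions above the median RPKM. The C/EBP share was 2.57% in 100 bp, 8.96% in 400 bp and 10.3% in whole regions. The median TSS distance was 16.3 kb with a 50 kb limit and 29.1 kb with a 200 kb limit, which the limits themselves set.

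No paired analysis was possible because no result came from a test between groups. With 2 libraries and a median of 84 and 104 reads, differences between single regions under the gap between the libraries cannot be read. Vehicle signal at these regions was not measured in the tables, and ZT6 libraries helped to set both region sets.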
